A study of Homo sapiens with 6 samples.

Results

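The S100 genes encode small proteins that bind calcium through paired EF-hand motifs, and most of them lie side by side in one cluster on the long arm of chromosome 1. Calcium binding opens a hydrophobic face with which the S100 dimer grips a partner protein inside the cell, and several members are also released and act on surface receptors such as RAGE and TLR4. In epithelia the calgranulins S100A8, S100A9 and S100A12 and the psoriasin gene S100A7 are known from inflamed or differentiating squamous tissue, while S100A8, S100A9 and S100A12 are also abundant in neutrophils and monocytes. S100A4 and S100A6 are better known from cell motility and growth.

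The 10 S100 genes described are S100A3, S100A4, S100A5, S100A6, S100A7, S100A8, S100A9, S100A12, S100A13 and S100A14, and they make up 10 of the 6641 genes listed by the authors. They were found by gene symbol, and all 10 lie within 274 kb of chromosome 1 at chr1:153357854-153631360 (GRCh38, GENCODE 29). They were selected on their FPKM difference between the lines, which was known when the family was picked, so these differences are given as a description, with no test. S100A1, S100A2, S100A10, S100A11 and S100A16 were not analysed here.

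RNA-seq libraries, 3 per line, were made from total RNA of the human non-small cell lung cancer lines HCC827 and HCC827_Er. HCC827 is a long-established adenocarcinoma line whose EGFR gene has an activating mutation, and HCC827_Er is its resistant counterpart by the series title. The study asked how the histone mark Kcr bears on resistance to EGFR kinase inhibitors (EGFR-TKI); the drug, its dose and the number of clones behind HCC827_Er are not given in the labels. Nothing says that the libraries of a line are separate cultures, so their spread may be technical, and p-values measure that spread only.

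Values are FPKM, fragments per kilobase of transcript scaled to the mapped fragments of the library, and the depth behind them is unknown. All listed genes together held 222927 to 224211 FPKM in the HCC827 libraries and 184633 to 190415 FPKM in those of HCC827_Er. Across the 5276 tested genes, which are not independent replicates, r was 0.989 to 0.993 within a line and 0.734 to 0.738 across lines. In such bulk RNA, fewer cells of a type and less RNA per cell cannot be told apart. The table holds almost no genes of equal level: among the tested genes, 97.1% had no overlap between the libraries of the lines. Of the tested genes 24.7% stood at least 2-fold higher in HCC827_Er and 19.7% at least 2-fold lower, all at a limma adjusted p under 0.05. Of 13 fixed markers of lung adenocarcinoma epithelium 11 were listed, and their summed FPKM ran from 2350 to 2440 in HCC827 and from 3571 to 3776 in HCC827_Er. EPCAM and NAPSA were among the 10 markers called higher in HCC827_Er, 1 of which (SFTPB) reached 1 FPKM there only, and KRT8, with 1744 ± 45.9 FPKM against 1025 ± 31.7 FPKM in HCC827_Er (SD, n = 3), was the one listed marker not called (called lower, at -1.11, with median-ratio rescaling).

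S100 transcripts were more abundant in HCC827_Er. The 10 members together summed to 1554, 1748 and 1435 FPKM in HCC827 and to 4275, 4568 and 4591 FPKM in HCC827_Er. This was 0.706% ± 0.0701 of the listed FPKM in HCC827 and 2.38% ± 0.0535 in HCC827_Er (SD, n = 3). The listed sum was itself lower in HCC827_Er, so the share rose by a larger factor than the members' sum. S100A6 alone held 93.7% ± 0.780 of the members' sum in HCC827 and 62.3% ± 0.454 in HCC827_Er. S100A9 held 0.567% ± 0.126 and 27.3% ± 0.619, so that the family went from one dominant transcript to a pair of them. Without S100A6 the other 9 members summed to between 95.5 and 100.5 FPKM in HCC827 and to between 1592 and 1751 FPKM in HCC827_Er.

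**Figure D1:**
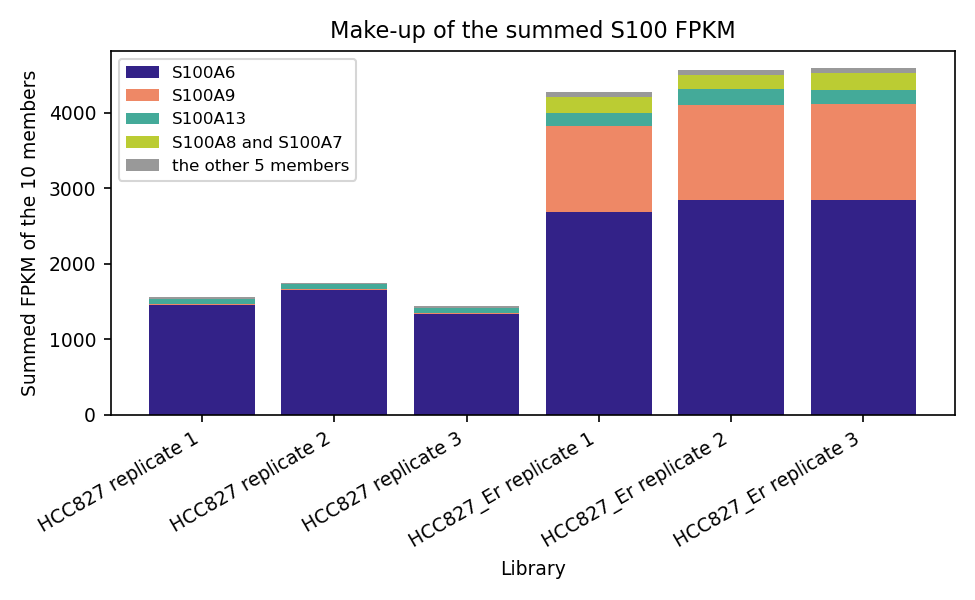
Summed FPKM of the 10 members (vertical axis) in each of the 6 libraries (horizontal axis), with the bar split by gene. The HCC827 bars end between 1435 and 1748 FPKM and consist almost wholly of S100A6, while the HCC827_Er bars end between 4275 and 4591 FPKM and hold a large S100A9 segment.

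On the log2(FPKM + 1) scale, which understates the difference of low genes, 8 members stood at least 2-fold higher in HCC827_Er (background 24.7%), 1 at least 2-fold lower (background 19.7%) and 1 within 2-fold. For all 10, every library of one line lay above or below every library of the other (background 97.1%). The median difference of the members was 2.19 and that of all tested genes 0.43. All 10 reached the minimum of 1 FPKM in 3 libraries. S100A5, S100A8 and S100A12 did so only through HCC827_Er and thus had to differ in that direction, while 6 members stood at 1 FPKM or more in all 6 libraries.

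**Figure D2:**
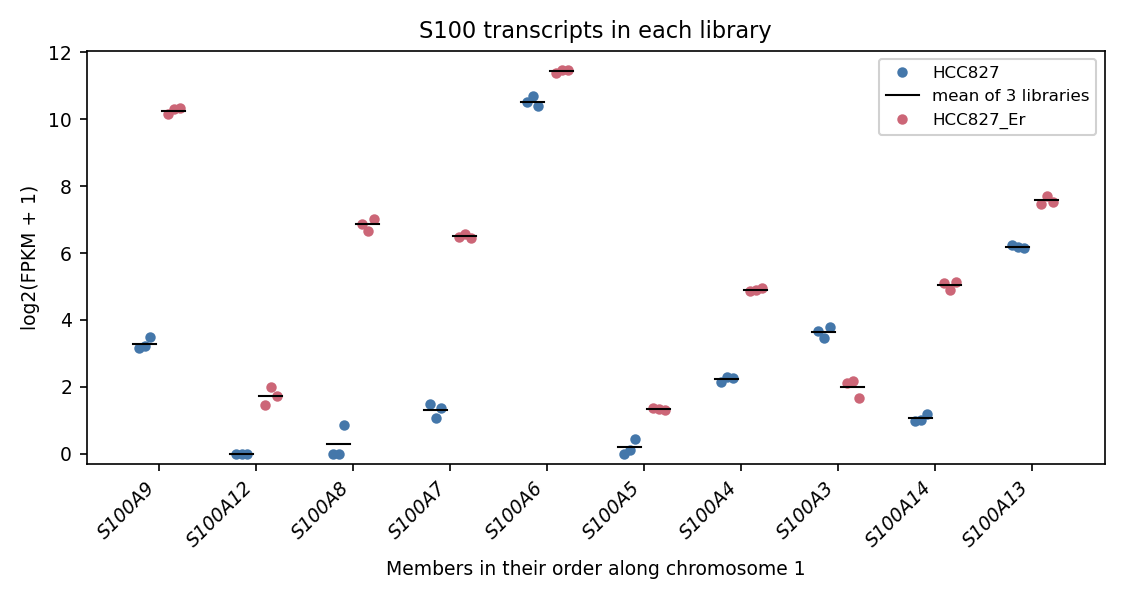
Levels of the 10 members as log2(FPKM + 1) (vertical axis) in their order along the chromosome (horizontal axis), 1 point a library, with the mean of the 3 libraries of a line as a bar. HCC827 and HCC827_Er points are apart for every member, and S100A3 is the one member with the HCC827_Er points below those of HCC827.

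The largest differences were those of the calprotectin genes. S100A9 (ENSG00000163220, chr1:153357854-153361027, plus strand) encodes the larger subunit of calprotectin, which binds zinc and manganese as well as calcium and is secreted as an antimicrobial protein. Its levels were 7.92, 8.39 and 10.21 FPKM in the HCC827 libraries and at 1141, 1254 and 1281 FPKM in those of HCC827_Er. S100A9 was therefore present in both lines and 139-fold higher in HCC827_Er by the ratio of the means (log2 difference 6.97, SE 0.090). By mean FPKM it ranked 2357th of the listed genes in HCC827 and 13th in HCC827_Er.

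S100A8 (ENSG00000143546, chr1:153390032-153391188, minus strand) encodes the other subunit. It was listed at 0, 0 and 0.83 FPKM in HCC827 and at 116, 101 and 129 FPKM in HCC827_Er. Since 2 HCC827 libraries were at 0, no fold is given, and its log2 difference of 6.56 (SE 0.23) depends on the pseudocount: it was 4.51 with 5 and 9.09 with 0.1, where S100A9 had 6.48 and 7.11. The subunits were not listed at equal levels per length: the ratio of S100A9 to S100A8 FPKM was 9.80, 12.5 and 9.93 in the HCC827_Er libraries and 12.3 in the HCC827 library that had both. S100A12 (ENSG00000163221, chr1:153373706-153375649, minus strand), another calgranulin that binds RAGE, lies between them on the chromosome. It was listed at 0 in all 3 HCC827 libraries and at 1.72, 2.95 and 2.30 FPKM in HCC827_Er. Its level in HCC827_Er was thus far under those of both its neighbours, and its log2 difference was 1.72 (SE 0.14) with a pseudocount of 1, 4.57 with 0.1 and 0.55, under 2-fold, with 5.

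S100A7 (ENSG00000143556, chr1:153457744-153460701, minus strand) encodes psoriasin, an antimicrobial protein of stressed and inflamed skin. Its transcripts were at 1.80, 1.11 and 1.60 FPKM in HCC827 and at 88.6, 94.1 and 85.9 FPKM in HCC827_Er, a 59.6-fold ratio of the means (log2 difference 5.19, SE 0.11). All HCC827_Er libraries stood far above all of HCC827. S100A7A, a near-identical copy next to it, reached 1.03 FPKM at most, and how the authors' counting split the reads of the pair is uncertain. S100A14 (ENSG00000189334, chr1:153614255-153616986, minus strand) encodes a divergent member of epithelial cells with a reduced capacity to bind calcium. Its levels were 0.950, 1.03 and 1.30 FPKM in HCC827 and 33.4, 28.98 and 33.9 FPKM in HCC827_Er, 29.3-fold apart (log2 difference 3.98, SE 0.11).

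S100A4, S100A6 and S100A13 differed less than S100A7, S100A8, S100A9 and S100A14. S100A4 (ENSG00000196154, chr1:153543613-153550136, minus strand) encodes a protein that binds non-muscle myosin and is widely used as a marker of fibroblasts and motile cells. Its libraries stood at 3.43, 3.87 and 3.83 FPKM in HCC827 and at 28.3, 28.6 and 29.9 FPKM in HCC827_Er, 7.80-fold higher (log2 difference 2.67, SE 0.086). S100A6 (ENSG00000197956, chr1:153534599-153536244, minus strand) encodes calcyclin, which binds annexins and the ubiquitin ligase adaptor CACYBP. It was the most abundant member in both lines, at 1453, 1653 and 1335 FPKM in HCC827 and 2683, 2846 and 2840.1 FPKM in HCC827_Er. The ratio of its means was 1.88, and its log2 difference was 0.92 (SE 0.074) as deposited, 0.58 with median-ratio rescaling and 1.17, past 2-fold, with rescaling to the listed sums. Without HCC827 replicate 2, its highest library in that line, the difference was 1.00. S100A13 (ENSG00000189171, chr1:153618787-153631360, minus strand), which takes part in the export of FGF1 and IL1A without a signal peptide, was listed at 74.2, 71.0 and 69.6 FPKM in HCC827 and at 178, 208 and 185 FPKM in HCC827_Er. The ratio of its means was 2.66 (log2 difference 1.39, SE 0.067). It shares 536 of its 2216 exonic bases with the noncoding gene AL162258.1 on the same strand, so part of its reads cannot be assigned with certainty. It also shares 235 exonic bases with S100A1 on the other strand, and the strand setting of the authors' counting is unknown. AL162258.1 (ENSG00000271853) went the other way, from 5.65 ± 1.2 FPKM to 2.27 ± 1.5 FPKM (SD, n = 3; log2 difference -1.11, limma adjusted p = 0.00564).

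S100A3 (ENSG00000188015, chr1:153547329-153549372, minus strand) was the one member with a lower level in HCC827_Er. It encodes a cysteine-rich protein known from the hair cuticle that binds zinc. Its levels were 11.8, 10.01 and 12.7 FPKM in HCC827 and 3.35, 3.50 and 2.17 FPKM in HCC827_Er, 3.83-fold lower by the ratio of the means (log2 difference -1.65, SE 0.16). S100A3 lies within the span of the longest S100A4 transcript on the same strand, and their annotated exons share no base. Set against each other within a library, S100A3 exceeded S100A4 by 3.44, 2.59 and 3.33 times in HCC827, while S100A4 exceeded S100A3 by 8.46, 8.18 and 13.8 times in HCC827_Er. S100A5 (ENSG00000196420, chr1:153537147-153541765, minus strand), a member known from olfactory neurons, lies between S100A6 and S100A4 and stayed low. It was listed at 0, 0.09 and 0.36 FPKM in HCC827 and at 1.56, 1.55 and 1.49 FPKM in HCC827_Er (log2 difference 1.15, SE 0.13, and 0.34 with a pseudocount of 5).

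FPKM is a level per length, so members can be ordered within a line. In HCC827 the order was S100A6, S100A13, S100A3, S100A9, S100A4, S100A7, S100A14, S100A8, S100A5 and S100A12. The libraries of S100A3 and S100A9, of S100A7 and S100A14, and of the last 3 neighbours overlapped there, so those places are not separated. In HCC827_Er the order was S100A6, S100A9, S100A13, S100A8, S100A7, S100A14, S100A4, S100A3, S100A12 and S100A5, with overlap between S100A14 and S100A4 and between S100A3 and S100A12. S100A9 thus went from the fourth place to the second and S100A3 from the third to the eighth. Within a line no library was high for all members: HCC827 replicate 3 had the highest level of 5 members and the lowest of 2, and HCC827_Er replicate 1 had the highest of 1 and the lowest of 5. The SD was between 3.26% and 23.6% of the mean in HCC827 for the 7 members above 0 in its 3 libraries, and between 2.47% and 26.5% in HCC827_Er for all 10.

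**Figure D3:**
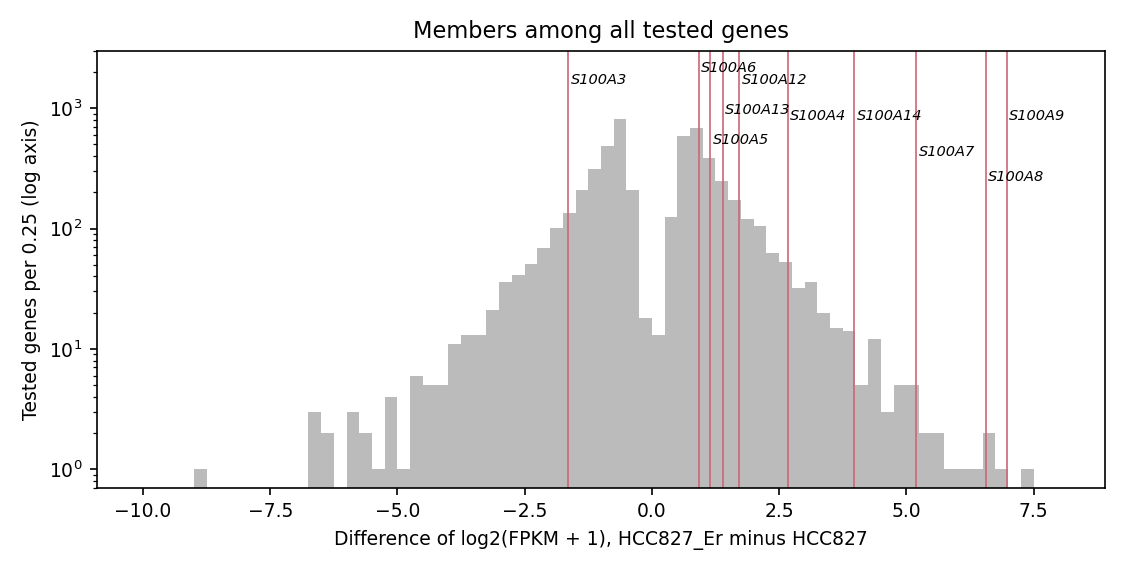
Number of tested genes (vertical axis, logarithmic) by their difference of log2(FPKM + 1), HCC827_Er minus HCC827 (horizontal axis), with a line at each member. Few genes lie near 0, and S100A7, S100A8 and S100A9 lie in the sparse upper tail, where 41 of 5276 genes had a difference of at least 4.

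Along the chromosome the members are spaced unevenly. S100A9, S100A12 and S100A8 come first, with gaps of 12.7 and 14.4 kb, and S100A7 lies 66.6 kb further on. The differences of S100A9, S100A12, S100A8 and S100A7 were 6.97, 1.72, 6.56 and 5.19. After a gap of 73.9 kb follow S100A6, S100A5, S100A4 and S100A3, packed with gaps of 0.902 and 1.85 kb and an overlap, whose differences ran from -1.65 to 2.67. S100A14 and S100A13 lie 64.9 kb further on and 1.80 kb apart, with differences of 3.98 and 1.39. Direct neighbours therefore differed in size, and in the S100A4 and S100A3 pair also in direction. S100A9, S100A8 and S100A7 had the 3 largest differences with either rescaling too (6.64, 6.34 and 4.90 with median-ratio, 7.20, 6.71 and 5.38 with rescaling to the listed sums).

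Other listed genes within 1 Mb of the cluster moved both ways. Of 18 such genes 14 could be tested, and HCC827_Er was called higher for 6 and lower for 4 (background 44.4% called in either direction), with a median difference of 0.24 (-0.07 with median-ratio rescaling). A call rests on limma, an adjusted p under 0.05 and at least a 2-fold change. All 6 higher calls and 2 of the lower ones (NPR1 and CRCT1) were of genes that reached 1 FPKM in one line only, so that the minimum fixed their direction. Of the other 6 tested neighbours, 2 were called lower and 4 were not called. The cornified envelope genes SPRR1B, SPRR2D, SPRR2A, SPRR2F and SPRR2E, which encode cross-linked proteins of squamous cells, lie on the S100A9 side and were listed at 0 in all HCC827 libraries. They reached 4.16 ± 0.480, 3.85 ± 0.659, 2.59 ± 0.688, 2.11 ± 0.420 and 1.72 ± 0.436 FPKM in HCC827_Er (SD, n = 3), and the SPRR2 genes are near-identical copies whose reads can be shared. With a pseudocount of 5 none of these SPRR genes was called. CRCT1, also on the S100A9 side, went the other way. It stood at 1.52 ± 0.545 FPKM in HCC827 and was listed at 0 in all HCC827_Er libraries. On the S100A13 side NPR1, the receptor of atrial natriuretic peptide, stood at 1.30 ± 0.261 FPKM in HCC827 and was listed at 0 in HCC827_Er. The lipid flippase gene ATP8B2 fell from 21.7 ± 2.05 to 6.12 ± 0.228 FPKM (log2 difference -1.67, limma adjusted p = 4.35e-07). One further S100 gene outside the cluster was tested: S100P, on chromosome 4, a member known from placenta and adenocarcinomas. It was listed at 2.64, 1.78 and 1.87 FPKM in HCC827 and at 97.5, 93.7 and 96.5 FPKM in HCC827_Er (log2 difference 4.98, SE 0.11).

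**Figure D4:**
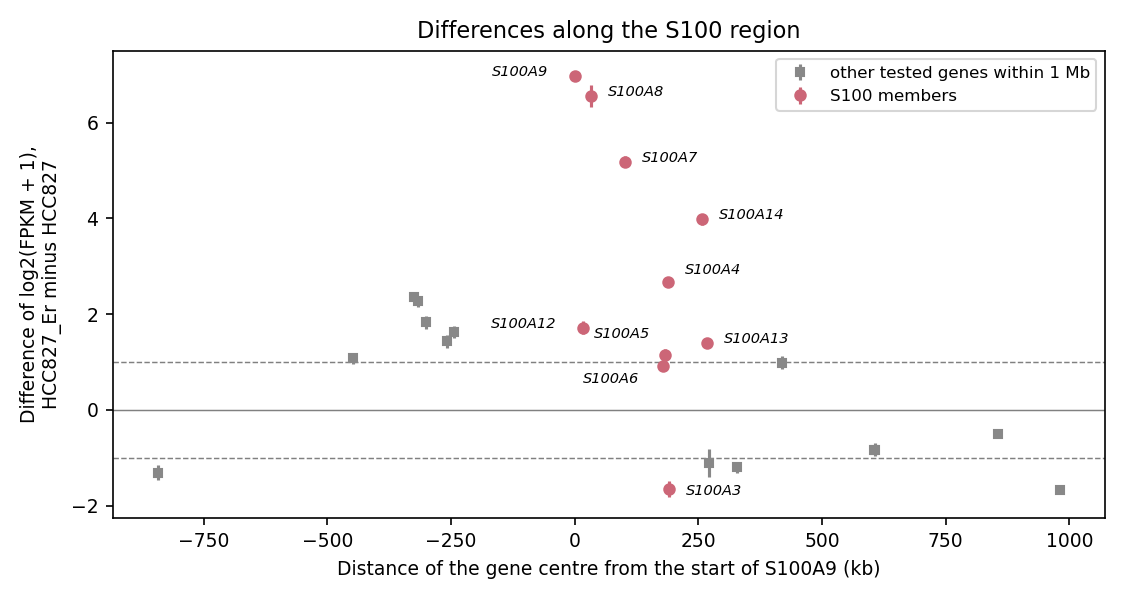
Difference of log2(FPKM + 1), HCC827_Er minus HCC827 (vertical axis), against the distance of each gene from the start of S100A9 in kb (horizontal axis), with SE bars and dashed lines at a 2-fold difference. The members (circles) reach from -1.65 to 6.97 within a short stretch, while the tested neighbours (squares) lie between -1.67 and 2.36.

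The bases before the gene starts were read because members with large differences lie beside members with small ones. RefSeq (GRCh38.p14) gave a start for all 10. The letters of a TATA box were searched on the gene strand in 2 ways, and a gene counts as matched where any of its RefSeq starts matches. The first search was for TATAAA anywhere in the 250 bases before a start and matched 6 of the 10 members (S100A4, S100A7, S100A8, S100A9, S100A12 and S100A13) and 8.38% of the 27305 genes with a sequence. After the members' sequences had been seen it was changed to TATAA within the bases 40 to 11 before a start, which matched 7 members (S100A6 and S100A14 gained, S100A12 lost) and 5.12% of all genes. The second search was thus fitted to the members, and its count describes them only. The start was also chosen after the sequences were seen for the 3 members with more than 1: the middle of 3 starts for S100A8 and S100A13, and the farther upstream of 2 for S100A5. At the S100A8 start taken first (position 153390976) the 30 bases hold no TATAA, and neither S100A5 start has it. The bases 40 to 11 before the start are shown for the members with the largest differences, for the abundant S100A6, and for S100A4 beside S100A3, with TATAA in capitals.
S100A9 (chr1:153357814-153357843, plus strand): caggagctgccTATAAatgccgagcctgca
S100A8 (chr1:153391084-153391113, minus strand): agcctaaccgcTATAAaaaggagctgcctc
S100A7 (chr1:153460662-153460691, minus strand): caggctgagcctTATAAaggactgctcttt
S100A14 (chr1:153616336-153616365, minus strand): cttcccccaggTATAAgagctgagctcagg
S100A6 (chr1:153536002-153536031, minus strand): caccgaccgcTATAAggccagtcggactgc
S100A4 (chr1:153545817-153545846, minus strand): tggctggggTATAAataggtcagacctctg
S100A3 (chr1:153549269-153549298, minus strand): aaaacccccaggggtcgggagggtaacctc
In the members that hold it, S100A13 included, TATAA began 28 to 31 bases before the start shown or taken. They include S100A6, with a small difference, as well as S100A9 and S100A8, with large ones.

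A further 6 motifs, chosen after the expression values had been seen, were searched on both strands in the 250 bases before every start. GGGCGG, the letters of a GC box, was found in 4 members and in 46.2% of all genes. TGANTCA (AP-1) was found in 3 members and 8.06% of genes, and TTCNNNGAA (STAT) in 2 members and 8.09% of genes. TTGCNNAA (C/EBP) was found in 1 member and 11% of genes, and AACNNGTT (GRHL) in 1 member and 3.73% of genes. The NF-kB motif, GGGA, any base, then TTTCC, was found in 0 members and 0.645% of genes. A match is a description of letters, not of a bound site. The window of S100A9 is shown as that of the calgranulin present in both lines and of the one GRHL match, with the GRHL match and a GC box, here read on the other strand, in capitals. The exon-free bases before S100A12 hold a C/EBP match on the other strand and an AP-1 match, and those before S100A3, the member that was lower, an AP-1 match and a GC box, again in capitals.
S100A9 (chr1:153357604-153357853, plus strand): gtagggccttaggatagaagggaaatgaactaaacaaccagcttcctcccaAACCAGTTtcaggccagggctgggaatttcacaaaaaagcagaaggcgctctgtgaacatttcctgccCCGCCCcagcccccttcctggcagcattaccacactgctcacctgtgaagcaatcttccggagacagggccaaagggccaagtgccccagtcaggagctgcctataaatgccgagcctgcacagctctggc
S100A12 (chr1:153375650-153375871, minus strand): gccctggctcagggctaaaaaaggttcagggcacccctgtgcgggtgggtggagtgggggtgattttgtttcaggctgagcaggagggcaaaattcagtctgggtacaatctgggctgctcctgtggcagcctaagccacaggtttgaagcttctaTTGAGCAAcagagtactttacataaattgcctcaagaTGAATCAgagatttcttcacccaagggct
S100A3 (chr1:153549373-153549508, minus strand): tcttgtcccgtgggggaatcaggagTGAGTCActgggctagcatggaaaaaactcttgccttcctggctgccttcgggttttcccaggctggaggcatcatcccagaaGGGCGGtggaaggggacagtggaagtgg
The C/EBP match of S100A12 ends 87 bases before its start and its AP-1 match 51 bases before it. The GRHL match of S100A9 lies 199 to 192 bases before its start.

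Transcription factors that are known to act on S100A8, S100A9 or squamous genes moved both ways. Of 37 in the list 22 were tested, 6 were called higher and 6 lower (background 44.4% in either direction), with a median difference of -0.69. With median-ratio rescaling the split was 4 higher and 11 lower. Of the 18 that reached 1 FPKM in both lines, 3 were called higher and 5 lower. The 3 higher factors were GRHL1, EHF and RARG, with log2 differences of 2.09, 1.28 and 1.11. These 3 did not all keep their calls with median-ratio rescaling, and EHF and RARG were the nearest to the 2-fold limit. The AP-1 subunit gene FOS fell from 204 ± 14.2 to 29.1 ± 3.65 FPKM (SD, n = 3; log2 difference -2.77, limma adjusted p = 2.19e-08). ATF3, a stress factor that pairs with AP-1 proteins, fell from 64.3 ± 8.17 to 8.04 ± 2.09 FPKM, and JUN and JUND were also called lower. A further 4 named factors reached 1 FPKM in one line only, which fixed their direction, and are given as values. FOSB, another AP-1 subunit gene, stood at 50.2 ± 4.82 FPKM in HCC827 against 0.580 ± 0.340 in HCC827_Er. The grainyhead factor GRHL2 of epithelial cells stood at 0.210 ± 0.0436 against 14.2 ± 1.89 FPKM. TP63, the regulator of squamous cells, stood at 0.170 ± 0.0819 against 5.71 ± 0.746 FPKM, and MYB at 0.160 ± 0.0700 against 5.03 ± 0.591 FPKM (0.96, under 2-fold, with a pseudocount of 5).

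Receptors and binding partners of S100 proteins moved both ways. Of 43 in the list 16 were tested, 3 were called higher and 6 lower (background 44.4% in either direction), with a median difference of -0.62 (1 higher and 7 lower with median-ratio rescaling, 3 and 3 with rescaling to the listed sums). MCAM, a surface receptor described for S100A8 and S100A9, fell from 311 ± 25.1 to 21.9 ± 1.38 FPKM (SD, n = 3; log2 difference -3.77, limma adjusted p = 1.44e-09). The annexin gene ANXA6 fell from 13.8 ± 0.448 to 1.16 ± 0.365 FPKM, and the tropomyosin genes TPM1 and TPM2 from 266 ± 7.90 to 51.5 ± 1.06 FPKM and from 33.7 ± 2.46 to 13.9 ± 2.24 FPKM. TPM2 was not called with rescaling to the listed sums. ALCAM, an adhesion molecule, reached 51.9 ± 3.26 FPKM from 21.8 ± 0.601 and lost its call with median-ratio rescaling. NCF4, a subunit of the phagocyte NADPH oxidase, stood at 0.0900 ± 0.156 against 2.82 ± 0.609 FPKM. It reached 1 FPKM in HCC827_Er only, which fixed its direction, and it was not called with a pseudocount of 5 (0.62). The RAGE gene AGER had 1.36 ± 0.114 FPKM in the HCC827 and 2.99 ± 0.156 in the HCC827_Er libraries, and BSG, another receptor of S100A9, 447 ± 13 and 257 ± 9.55 FPKM. Neither was called as deposited, though AGER passed with a pseudocount of 0.1 (1.08) and BSG with median-ratio rescaling (-1.14). TLR4 was not analysed here.

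Other EF-hand genes moved in both directions. Of 65 in the list 24 were tested, 8 were called higher and 5 lower (background 44.4% in either direction), with a median difference of -0.57 (4 and 9 with median-ratio rescaling, 8 and 3 with rescaling to the listed sums). Of the 21 that reached 1 FPKM in both lines, 5 were called higher and 5 lower. CALB1, the calcium buffer calbindin, fell from 184 ± 8.37 to 23.1 ± 1.35 FPKM (SD, n = 3; log2 difference -2.94, limma adjusted p = 2.38e-09). EFCAB11 rose from 3.99 ± 1.42 to 11.8 ± 0.389 FPKM and was not called with a pseudocount of 5 (0.91). The myosin light chain gene MYL12A fell from 450.5 ± 18.0 to 179 ± 5.94 FPKM and RCN3, of the secretory pathway, from 43.1 ± 1.97 to 16.9 ± 0.559 FPKM. SPARC, a matrix protein, stood at 0.25 ± 0.118 FPKM in HCC827 against 17.8 ± 2.05 in HCC827_Er, and VSNL1, a neuronal calcium sensor, at 0.02 ± 0.0346 against 1.83 ± 0.264 FPKM (0.44, under 2-fold, with a pseudocount of 5). Both reached 1 FPKM in HCC827_Er only, which fixed their direction.

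Epithelial antimicrobial genes and genes of the response to interleukin-17, with which S100A7, S100A8 and S100A9 are often reported, moved both ways. Of 47 in the list 22 were tested, 10 were called higher and 10 lower (background 24.7% and 19.7%), with a median difference of 0.64 (-1.40 over the 18 genes left with a minimum of 5 FPKM). Of the 18 that reached 1 FPKM in both lines, 6 were called higher, 10 lower and 2 were not called. No background share was taken for such genes alone. DEFB4A, a beta-defensin gene with a near-identical copy, rose from 7.59 ± 1.04 to 351 ± 18.9 FPKM (SD, n = 3; log2 difference 5.36, limma adjusted p = 8.38e-10). The protease inhibitor gene SLPI rose from 13.3 ± 2.14 to 135 ± 7.54 FPKM and the chemokine gene CCL20 from 34.1 ± 2.64 to 227 ± 27.3 FPKM. The direction of 4 of the higher calls was fixed by the minimum, since they reached 1 FPKM in HCC827_Er only. Among them the antimicrobial ribonuclease RNASE7 stood at 0.0233 ± 0.0404 against 6.69 ± 1.28 FPKM and the stress keratin KRT16 at 0.237 ± 0.224 against 33.0 ± 0.940 FPKM. The neutrophil chemokine gene CXCL5 fell from 2458 ± 118 to 236 ± 27.1 FPKM (log2 difference -3.38, adjusted p = 4.07e-09), and PI3, an inhibitor of elastase, was also called lower.

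Since calgranulins mark myeloid cells, markers of these cells were read beside them. Of 28 in the list 11 were listed and 7 tested, 6 of them called higher in HCC827_Er (background 24.7%) and 0 lower (2 higher with a pseudocount of 5). Of the 7, 5 reached 1 FPKM in HCC827_Er only and could not be called lower, so nothing is read from this count. ITGB2 and CD68 reached it in both lines. CSF1R reached 5.45 ± 1.71 FPKM in HCC827_Er, CORO1A 7.66 ± 0.966, ITGB2 13.7 ± 1.66, LAPTM5 4.49 ± 0.370, FPR1 1.61 ± 0.248 and CD14 1.73 ± 0.176 FPKM (SD, n = 3). CD68, a lysosomal protein of macrophages and other cells, had a level of 174 ± 3.10 FPKM in the HCC827 libraries against 117 ± 4.36 in those of HCC827_Er, a difference within 2-fold. All 11 summed to between 176 and 183 FPKM in HCC827 and between 151 and 161 FPKM in HCC827_Er. Without CD68 the listed markers summed to between 5.87 and 7.27 FPKM in HCC827 and between 33.4 and 39.4 FPKM in HCC827_Er. The listed markers that were not tested were MPO, ITGAM, CSF3R and CD53. The neutrophil granule gene MPO was listed at 0 in HCC827 and at 0.350 FPKM at most in HCC827_Er. Mean levels in HCC827 and HCC827_Er were 0.897 and 0.187 FPKM for ITGAM, 0.0433 and 1.07 for CSF3R, and 0.0533 and 0.633 for CD53. PTPRC was not analysed here. The part of such cells in the S100 levels was not tested.

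**Figure D5:**
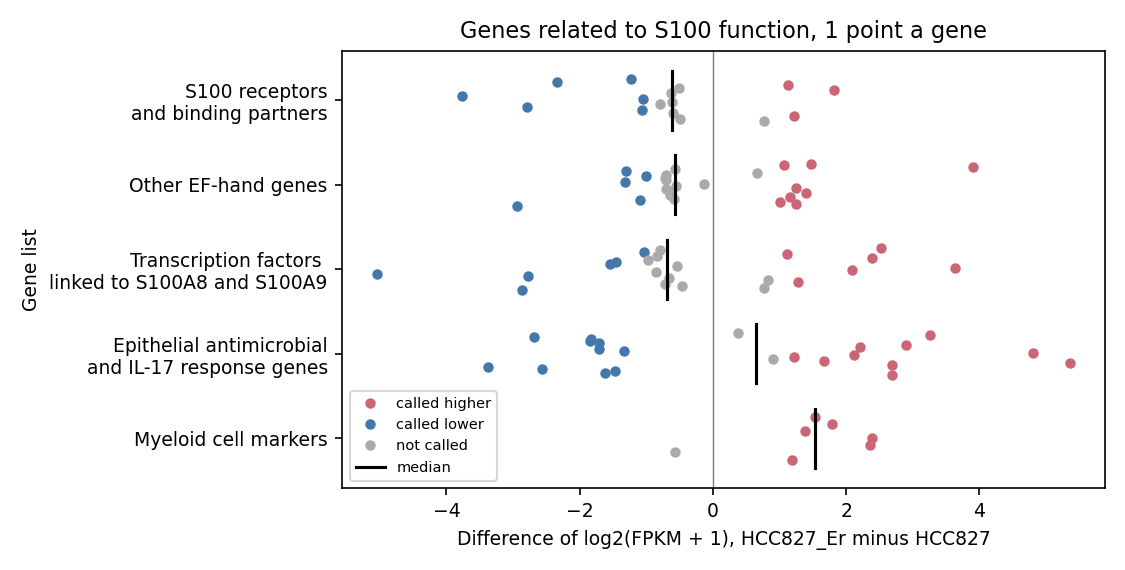
Difference of log2(FPKM + 1), HCC827_Er minus HCC827 (horizontal axis), for the tested genes of 5 lists (vertical axis), 1 point a gene, coloured by call, with the list's median as a black bar. The medians lie at -0.62, -0.57, -0.69, 0.64 and 1.53 from top to bottom.

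The genes whose profile over the 6 libraries was most like those of S100A8 and S100A9 were the same 3. Likeness was the root mean square difference of log2(FPKM + 1) after each gene was centred on its own mean. AGR2, which encodes a protein disulfide isomerase of mucous cells, differed from S100A8 by 0.18 and from S100A9 by 0.25. SFTA2, a surfactant-associated gene, differed by 0.19 and 0.42, and PRODH, the proline dehydrogenase gene, by 0.44 and 0.50. With 2 groups this measure mostly reflects a difference of like size between the lines. AGR2 and PRODH, like S100A8, reached 1 FPKM in HCC827_Er only, which fixed their direction. The measure was taken with a pseudocount of 1 only, and the S100A8 difference depends on the pseudocount.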

How the data were processed

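The deposited values are gene-level FPKM in 1 table, made by the authors. Fastp, HISAT2 and StringTie are named per the submitters' processing notes, with builds GRCh38.p14 and hg19 in no stated role; the sources used here give no versions, annotation, strand setting or reason why these genes are in the table. Since FPKM is relative to the library, very abundant transcripts lower all others; depth is unknown.

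Symbols and positions were matched by identifier (5917 named genes; GENCODE 29 positions for 6353 of 6641). Genes at 1 FPKM or more in at least 3 libraries (5276) were fitted as log2(FPKM + 1) in limma 3.58.1 (R 4.3.3; lmFit, eBayes with trend), with Benjamini-Hochberg adjustment over all tested. A call needs an adjusted p under 0.05 and a log2 difference of at least 1. Background shares are over all tested genes. None was taken for the genes that reached 1 FPKM in both lines, so counts among these have no matched background. The fit was run on simulated data with HCC827 levels and few changed genes. Such data do not cover genes near 0 in HCC827, or a table where 44.4% of tested genes were called. An exact test of 3 against 3 cannot give a two-sided p under 0.05, so single genes were tested only in the fit.

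The members and lists were chosen with earlier results of these data known, and the motifs, the TATA window and the RefSeq starts of S100A5, S100A8 and S100A13 after values or sequences had been seen. Named were all members, up to 6 called genes of each list and of the neighbours with the largest differences, and the 3 genes most like S100A8 and S100A9. AGER, BSG, CD68, MPO, ITGAM, CSF3R, CD53, KRT8, EPCAM, NAPSA, SFTPB, JUN, JUND, GRHL1, EHF, RARG, NPR1, CRCT1, PI3, S100A7A and AL162258.1 were named after their values were seen. Alternatives were pseudocounts of 0.1 and 5, no minimum or one of 5 FPKM, 2 rescalings, a replicate block, no trend, and each library left out.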

Additional observations from a re-analysis of the deposited data

How the results depend on the processing

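The members' directions were the same under all alternatives run: 109 member differences moved by less than the spread between libraries and 29 by more, none with a change of sign. The 109 include the settings of no minimum, a minimum of 5 FPKM, a replicate block and no trend. Those settings cannot change a member's difference, so they say nothing of its stability. Each member had all its values in one line above all its values in the other. Another pseudocount or a left-out library could therefore change the size of a difference but not its sign. Only the 2 rescalings could have reversed a direction, and neither did. The number of members at least 2-fold apart stayed between 7 and 10, and between 9 and 10 with 1 library left out. With a minimum of 5 FPKM it was 7 of the 8 members that passed. With a pseudocount of 5 the genes called fell from 2345 to 1085 of 5276, calls among other EF-hand genes from 13 to 6, myeloid markers from 6 to 2 and neighbours from 10 to 1. With a minimum of 5 FPKM, where fewer genes were tested, 2 myeloid markers of 3 and 1 neighbour of 4 were called. Median-ratio rescaling, which moved HCC827_Er against HCC827 by -0.34 on the log2 scale, gave 896 higher and 1657 lower genes, and rescaling to the listed sums, which moved it by 0.25, gave 1825 and 794, against 1304 and 1041 as deposited. Leaving out 1 library gave 2339 to 2379 called genes, 8 to 9 partners, 11 to 13 other EF-hand genes, 11 to 13 transcription factors, 19 to 20 antimicrobial genes, 6 myeloid markers and 9 to 11 neighbours. The rise in the members' share of the listed FPKM, 1.67 percentage points, was then 1.64 to 1.71, and the S100A8 to S100A9 ratio in HCC827_Er, 0.0944, was 0.0905 to 0.101. Libraries of one number in both lines did not deviate together (correlations of deviations 0.106, -0.0219 and 0.0489). With the replicate number as a block the number of called genes was 2345. The number of calls was also the same for the partners, the other EF-hand genes, the transcription factors, the antimicrobial genes, the myeloid markers and the neighbours. For the members, which were not tested, such a block cannot change the differences. Depth is unknown, so levels near 1 FPKM, as of S100A5 and S100A12, have no counting error here. In fits with rescaling or a library left out the tested genes were those of the deposited values.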
